A study of Mus musculus with 36 samples.

Results

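Nuclear genes of the mitochondrial respiratory complexes, the mitochondrial ribosome and the mitochondrial import machinery were examined in newborn mouse brain. Most encode parts of these, and some encode assembly factors. They were chosen by name, from genes whose symbols start with Nduf, Sdha to Sdhd, Uqcr, Cox4 to Cox8, Atp5, Mrpl, Mrps, Timm or Tomm, on autosomes other than chromosome 10. Cox7a2l was left out. Each gene had to have a probe with a detection score above 0.99 in at least 6 of the 18 arrays, and was represented by its brightest such probe. This gave 87 genes, of 4147 named genes with a kept probe. They comprised 25 genes of complex I, 3 of complex II, 3 of complex III, 6 of complex IV and 9 of ATP synthase. By symbol, complex I here includes the assembly factors Ndufaf2, Ndufaf3, Ndufaf4, Ndufaf7 and Ndufaf8, and complex II includes Sdhaf3. A further 16 belonged to the large and 15 to the small subunit of the mitochondrial ribosome, 4 to import at the inner membrane and 6 to import at the outer membrane. Names came from numbers in the probe IDs read as NCBI Gene IDs, which is an inference, and the evidence for it is given with the processing. Of 97 such genes on the array, 10 had no kept probe: Cox7a1, Mrpl32, Mrpl35, Mrps36, Ndufab1, Ndufaf6, Sdha, Timm23, Timm29 and Tomm20. By its annotation, Ndufs5-ps is a pseudogene, and its signal may not be told apart from that of its parent gene.

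The study compared 3 mouse lines on microarrays, and its title names Rnf41, seizures, depression and behaviour akin to anxiety. Whole brains of postnatal day 0.5 were hybridised singly to Illumina Sentrix Mouse-6 arrays, 6 brains per line. The lines were the C10 congenic line, written A.B6chr10 in the series text, and the inbred strains B6 and A/J. By the usual naming of congenic lines, C10 congenic mice carry chromosome 10 material of B6 on an A/J background, and the labels do not say how far it extends. None of the 87 genes lies on chromosome 10. The labels give no transgene and no treatment for any line.

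Mitochondria of neurons and glia make most of the ATP that a brain uses. Complexes I to IV pass electrons from food-derived carriers to oxygen, and all of them except complex II pump protons across the inner membrane, and ATP synthase, complex V, uses the return flow of protons to make ATP. A few core subunits are encoded in mitochondrial DNA and made on the mitochondrial ribosome, whereas all other subunits, all mitochondrial ribosomal proteins and the import machinery are encoded in the nucleus. Proteins made in the cytosol enter through the TOM complex of the outer membrane and are sorted at the inner membrane by the TIM complexes. In mammals, nuclear genes of this kind are classically regulated by the transcription factors NRF1, the ETS family protein GABP (also called NRF2) and YY1.

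The arrays had between 14415 and 15737 probes detected per brain, and 85 to 87 of the 87 genes. Signals are the deposited background-subtracted intensities, and they do not measure absolute amounts, so levels are compared between lines for one probe and not between probes. Summed neuronal markers, 6 of 8 of which had a kept probe, spanned 48247 to 52838 in C10 congenic brains, 39328 to 56757 in B6 brains and 48236 to 53132 in A/J brains. Of the neuronal markers on the array, Snap25 was detected in no brain, and neither was the astrocyte marker Gfap. A probe that does not work cannot be told apart here from an absent transcript. Haemoglobin probes, 3 of the 4 red blood cell markers, summed to 24068 to 50783 in C10 congenic brains, 9353 to 23232 in B6 brains and 33787 to 53024 in A/J brains, so that B6 brains lay below both other lines without overlap. The microglial receptor gene Csf1r likewise lay at 105.8 to 269.4 in B6 brains, below 288 to 568.5 in C10 congenic brains and 273 to 345 in A/J brains. The part of these cells in the differences of B6 described below was not tested. Fewer cells of a type cannot be told apart from less RNA per cell. Whether sequence differences between the lines lie under these probes, or under those of the 87 genes, was not tested either. One A/J brain, number 6, had an Xist signal of 7077 and Y-linked signals of -7.3 for Eif2s3y and -2.9 for Kdm5d, unlike the other 17 brains.

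Promoters of 76 of the 87 genes were found in a RefSeq table of the GRCm38.p6 build, as 300 bases from 250 before to 50 after the start of the gene. The promoters of 5 genes are shown because these genes differed between lines in the tests below. Capitals mark matches to GCGC, any base and TGCGC in 1 run (NRF1), CCGGAAG (ETS) or AAGATGGCG (YY1) on either strand, so that the ETS motif can read CTTCCGG, and matches may overlap. The sixth gene that differed, Atp5mpl, is named only.
Tomm22, chr15:79670618-79670917, plus strand: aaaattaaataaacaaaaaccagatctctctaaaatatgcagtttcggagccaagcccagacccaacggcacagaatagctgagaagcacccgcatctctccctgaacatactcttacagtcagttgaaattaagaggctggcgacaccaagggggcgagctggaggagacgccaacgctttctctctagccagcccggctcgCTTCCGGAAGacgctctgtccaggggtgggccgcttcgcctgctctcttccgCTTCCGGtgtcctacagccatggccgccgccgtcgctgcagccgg
Mrps12, chr7:28741772-28742071, minus strand: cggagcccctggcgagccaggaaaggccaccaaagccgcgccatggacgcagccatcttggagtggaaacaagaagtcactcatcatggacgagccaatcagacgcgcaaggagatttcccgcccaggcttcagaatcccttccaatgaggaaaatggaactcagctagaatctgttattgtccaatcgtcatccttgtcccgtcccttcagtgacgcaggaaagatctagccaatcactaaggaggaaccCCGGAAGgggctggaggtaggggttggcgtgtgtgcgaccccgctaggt
Mrpl27, chr11:94653541-94653840, plus strand: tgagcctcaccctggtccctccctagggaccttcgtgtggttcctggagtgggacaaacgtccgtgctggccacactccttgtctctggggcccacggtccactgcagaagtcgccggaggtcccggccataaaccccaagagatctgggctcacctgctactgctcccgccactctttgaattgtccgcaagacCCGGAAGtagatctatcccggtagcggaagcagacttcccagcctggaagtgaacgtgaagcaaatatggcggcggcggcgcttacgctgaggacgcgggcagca
Atp5g2, chr15:102670998-102671297, minus strand: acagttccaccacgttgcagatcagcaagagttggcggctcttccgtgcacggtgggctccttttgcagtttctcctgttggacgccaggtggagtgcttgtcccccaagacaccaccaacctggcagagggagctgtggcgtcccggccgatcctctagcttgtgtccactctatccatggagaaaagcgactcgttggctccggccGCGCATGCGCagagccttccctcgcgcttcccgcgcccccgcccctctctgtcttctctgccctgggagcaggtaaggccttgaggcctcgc
Ndufaf2, chr13:108158576-108158875, minus strand: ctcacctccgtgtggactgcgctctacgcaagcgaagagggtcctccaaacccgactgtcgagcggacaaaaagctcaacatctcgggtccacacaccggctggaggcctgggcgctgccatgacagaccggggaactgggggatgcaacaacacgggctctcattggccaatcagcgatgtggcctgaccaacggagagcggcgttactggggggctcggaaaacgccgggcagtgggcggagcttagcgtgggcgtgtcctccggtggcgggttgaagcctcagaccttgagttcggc
Tomm22 had 3 ETS matches, of which a pair overlaps on opposite strands. Mrps12 and Mrpl27 each had 1 ETS match, Atp5g2 had an NRF1 match and Ndufaf2 had none of the 3 motifs in this window. Over the 76 promoters, 18 held the NRF1 motif (23.7%), against 12.4% of 3307 promoters of named genes with a kept probe and 5.22% of all 26742 promoters in the table. The ETS motif was in 31 of the 76 (40.8%), against 21.1% of promoters of named kept genes and 10% of all. The YY1 motif was in 7 (9.21%), against 3.60% and 1.65% in the same larger sets. Among the 18 with an NRF1 match were Uqcrc1, Cox6a1, Mrpl12 and Timm8b. Such matches describe the letters of the reference sequence, and the sequences of the 3 lines were not used here.

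Across the 87 genes, few were called different between newborn brains of the 3 lines, and every call was made in a comparison with B6. In C10 congenic against B6 brains, 6 of the 87 genes (6.90%) were called different by limma at an adjusted p under 0.05 across 15883 kept probes, against 12.1% of all probes and 10.4% of named genes. All 6 were lower in C10 congenic brains, where 6.11% of all probes were called lower and 5.99% higher. In B6 against A/J brains, 4 of 87 (4.6%) were called, against 16.1% of all probes and 15.3% of named genes. These 4 were all higher in B6, a direction called for 8.12% of all probes, while 7.99% were called lower. Tomm22, Mrps12, Atp5g2 and Ndufaf2 were called in both comparisons, which share the B6 brains, while Mrpl27 and Atp5mpl were called only in C10 congenic against B6 brains. In C10 congenic against A/J brains, none of the 87 genes was called, against 0.932% of all probes (0.441% higher, 0.491% lower) and 0.844% of named genes. At an unadjusted p under 0.05, limma gave 12 of the 87 (13.8%) in that comparison, against 15.2% of all probes. All 12 were lower in C10 congenic brains, a direction taken at that p by 7.71% of all probes and 10.1% of named genes. Of the 87, 0 were higher, against 7.52% of all probes and 5.09% of named genes. In C10 congenic against B6 brains, 12 of 87 (13.8%) had such a p, all lower, where 11.3% of all probes were lower and 13.9% higher. B6 against A/J brains gave 9 of 87 (10.3%), 7 higher and 2 lower, against 13.5% of all probes higher and 15.3% lower. The adjustment was made within each comparison, so the unadjusted p needed for a call differed between comparisons.

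**Figure D1:**
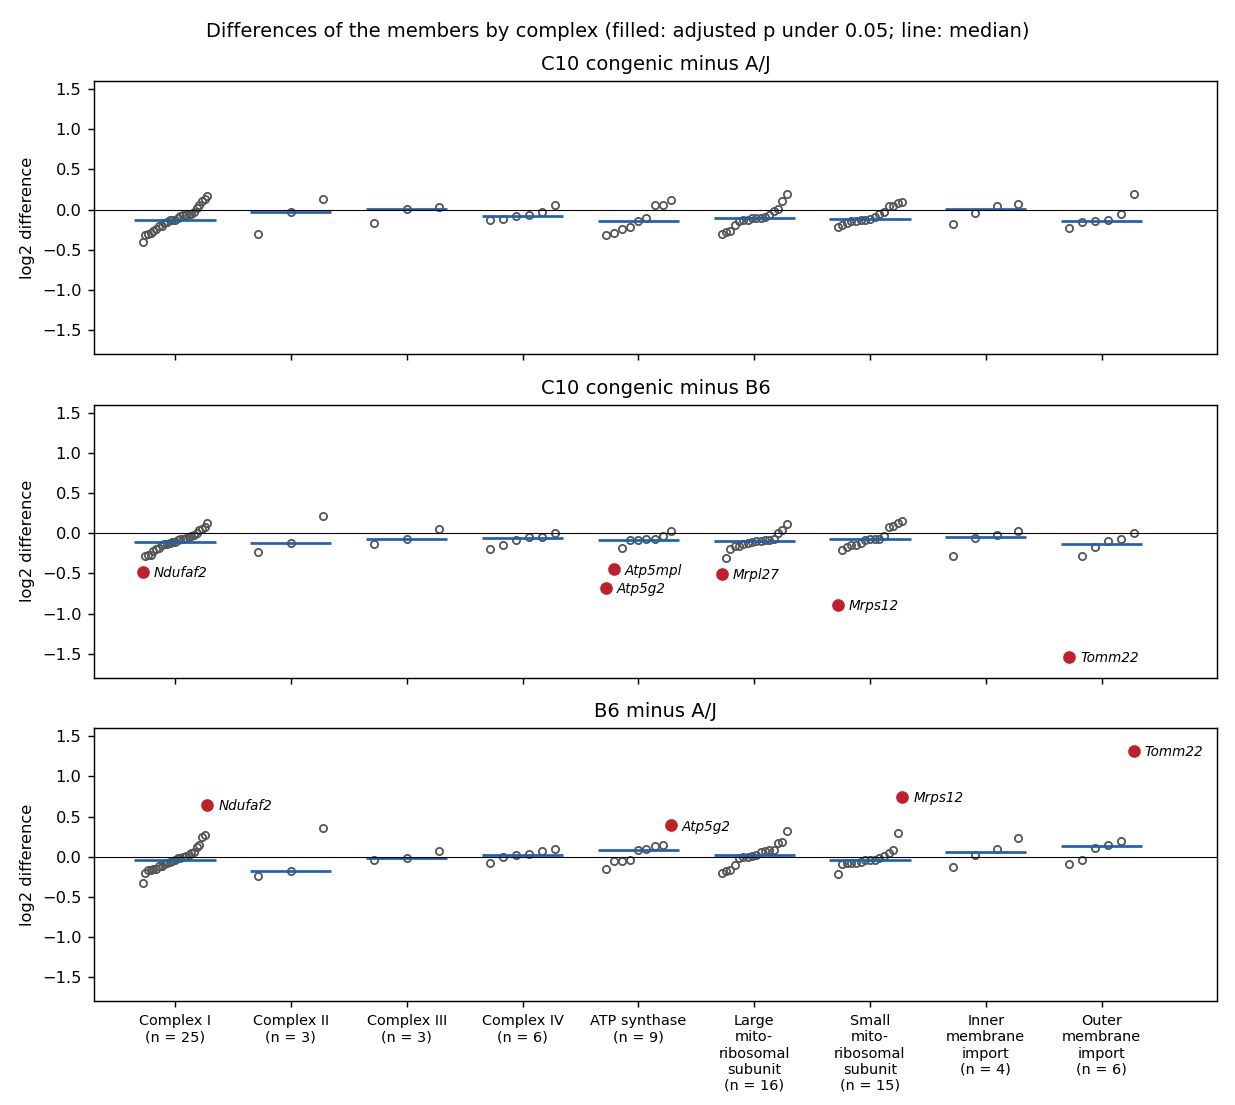
Difference in log2 signal of each of the 87 genes (points), by complex, for C10 congenic minus A/J, C10 congenic minus B6 and B6 minus A/J; the y axis is the log2 difference, filled points had an adjusted p under 0.05 and blue lines mark the median of a complex. No point is filled in the upper panel, 6 filled points lie below 0 in the middle panel and 4 above 0 in the lower panel.

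Tomm22, on chromosome 15, differed most of the 87 genes between lines. It encodes the central receptor of the TOM complex, which takes over precursor proteins from the other receptors and passes them to the channel. Its signal in C10 congenic brains was 446 at the lowest, 518 at the median and 555 at the highest, against 1536, 1608 and 1759 in B6 brains. In A/J brains the lowest, median and highest were 520, 612 and 712. Every B6 brain thus lay above every brain of the other lines, whereas the ranges of C10 congenic and A/J brains overlapped. On the log2 scale of the shifted signal, Tomm22 fell by 1.54 ± 0.09 (SE, n = 6 per line) in C10 congenic against B6 brains, a 2.91-fold difference (adjusted p = 3.53e-12, limma). It was higher by 1.32 ± 0.09 in B6 than in A/J brains (adjusted p = 7.04e-11). Between C10 congenic and A/J brains the difference was -0.22 ± 0.09 and missed the threshold (adjusted p = 0.247), although 4 of 6 C10 congenic brains lay below the lowest A/J brain. The probe was detected in all 18 brains and is the only kept probe of the gene.

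None of the other 5 genes of outer membrane import was called, and whether their differences between lines were smaller than that of Tomm22 was not tested. Tomm40, which forms the channel of the complex, was dim, with a lowest, median and highest signal of 52.6, 108 and 151 in C10 congenic, 92.1, 155 and 211 in B6 and 89.4, 132 and 145 in A/J brains. It was detected in 5 of 6 brains of each line, and all 3 ranges overlapped. Its log2 difference of C10 congenic minus B6 was -0.29, with a 95% interval of -0.57 to -0.00, and was not called (adjusted p = 0.191). Tomm70a, the receptor for carrier proteins, had medians of 1650.3, 1881 and 1857 in C10 congenic, B6 and A/J brains, with overlapping ranges. Tomm6, a small subunit that steadies the complex in yeast, differed by 0.20 in C10 congenic minus A/J (adjusted p = 0.592). Including Tomm22, 5 of the 6 genes were lower in C10 congenic than in B6 brains, with a median of -0.13, and 4 of 6 were higher in B6 than in A/J brains, with a median of 0.13. Log2 differences over the 6 genes, which also held Tomm5 and Tomm7, spanned -0.22 to 0.20 in C10 congenic minus A/J, -1.54 to 0.01 in C10 congenic minus B6 and -0.09 to 1.32 in B6 minus A/J.

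At the inner membrane, none of the 4 genes of import was called in any comparison. Timm8b, a small chaperone of the space between the membranes, had a median signal of 4823 in C10 congenic, 5390.0 in B6 and 4507 in A/J brains. Its largest difference was -0.28 in C10 congenic minus B6 (adjusted p = 0.135), and C10 congenic brain 3, at 3112.5, lay far below the other 5 of its line. Timm10b, of the carrier translocase, differed by -0.18 in C10 congenic minus A/J (adjusted p = 0.385), with 5 of 6 C10 congenic brains below the lowest A/J brain. Timm21, of the presequence translocase, had 3 kept probes, and none of them was called. Log2 differences over the 4 genes, which also held Timm9, spanned -0.18 to 0.07 in C10 congenic minus A/J, -0.28 to 0.02 in C10 congenic minus B6 and -0.12 to 0.24 in B6 minus A/J.

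In the mitochondrial ribosome, 2 of 31 genes differed, 1 of each subunit. Mrps12, on chromosome 7, encodes the small-subunit protein whose bacterial counterpart S12 lines the decoding centre. Its signal was 884, 1065 and 1258 (lowest, median, highest) in C10 congenic brains, against 1774, 1975 and 2509 in B6 brains. A/J brains had 939, 1173 and 1452. The B6 brains again lay above all others without overlap, and the other lines overlapped each other. The gene fell by 0.89 ± 0.11 (log2, SE, n = 6 per line) in C10 congenic against B6 brains (1.86-fold, adjusted p = 1.37e-06, limma), and was higher by 0.75 ± 0.11 in B6 than in A/J brains (1.68-fold, adjusted p = 1.83e-05). C10 congenic minus A/J was -0.15 (adjusted p = 0.552).

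Mrpl27, on chromosome 11, encodes a large-subunit protein related to bacterial L27, which sits near the site of peptide bond formation. C10 congenic brains had signals of 473, 596 and 899 (lowest, median, highest), B6 brains 603, 1001 and 1134, and A/J brains 609, 746 and 865. B6 brain 4 was the lowest of its line and lay within the range of the C10 congenic brains, while the other 5 B6 brains lay between 894 and 1134. Mrpl27 was called lower in C10 congenic than in B6 brains (log2 difference -0.51 ± 0.14, SE, 1.42-fold, adjusted p = 0.0166, limma). Its difference of 0.32 in B6 minus A/J was not called (adjusted p = 0.132), and without B6 brain 4 it was 0.43 with an adjusted p of 0.0201. The call against B6 was lost without C10 congenic brain 4 (adjusted p = 0.0521).

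The remaining 29 ribosomal genes were not called. Mrpl12, the stalk protein of the large subunit, had medians of 2937 in C10 congenic, 2913 in B6 and 2964 in A/J brains, and ranges that overlapped in all pairs. The largest uncalled differences of the large subunit were -0.30 for Mrpl51 in C10 congenic minus B6 (adjusted p = 0.0894, and 0.033 without C10 congenic brain 5) and -0.30 for Mrpl47 in C10 congenic minus A/J (adjusted p = 0.278). In the small subunit, they were 0.29 for Mrps21 in B6 minus A/J (adjusted p = 0.075) and -0.22 for Mrps24 in C10 congenic minus A/J (adjusted p = 0.426). Mrps21 had a median of 2349 in B6 brains and 1919 in A/J brains, and A/J brain 6, at 2636, was far above the other 5 of its line. Without that brain, Mrps21 was higher by 0.38 in B6 than in A/J brains with an adjusted p of 0.012. Log2 differences over the 16 genes of the large subunit, which also held Mrpl17, Mrpl18, Mrpl19, Mrpl20, Mrpl22, Mrpl23, Mrpl30, Mrpl33, Mrpl4, Mrpl49 and Mrpl50, spanned -0.30 to 0.19 in C10 congenic minus A/J, -0.51 to 0.11 in C10 congenic minus B6 and -0.20 to 0.32 in B6 minus A/J. Log2 differences over the 15 genes of the small subunit, which also held Mrps10, Mrps11, Mrps15, Mrps16, Mrps17, Mrps18b, Mrps18c, Mrps23, Mrps26, Mrps33, Mrps5 and Mrps6, spanned -0.22 to 0.09 in C10 congenic minus A/J, -0.89 to 0.15 in C10 congenic minus B6 and -0.22 to 0.75 in B6 minus A/J.

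**Figure D2:**
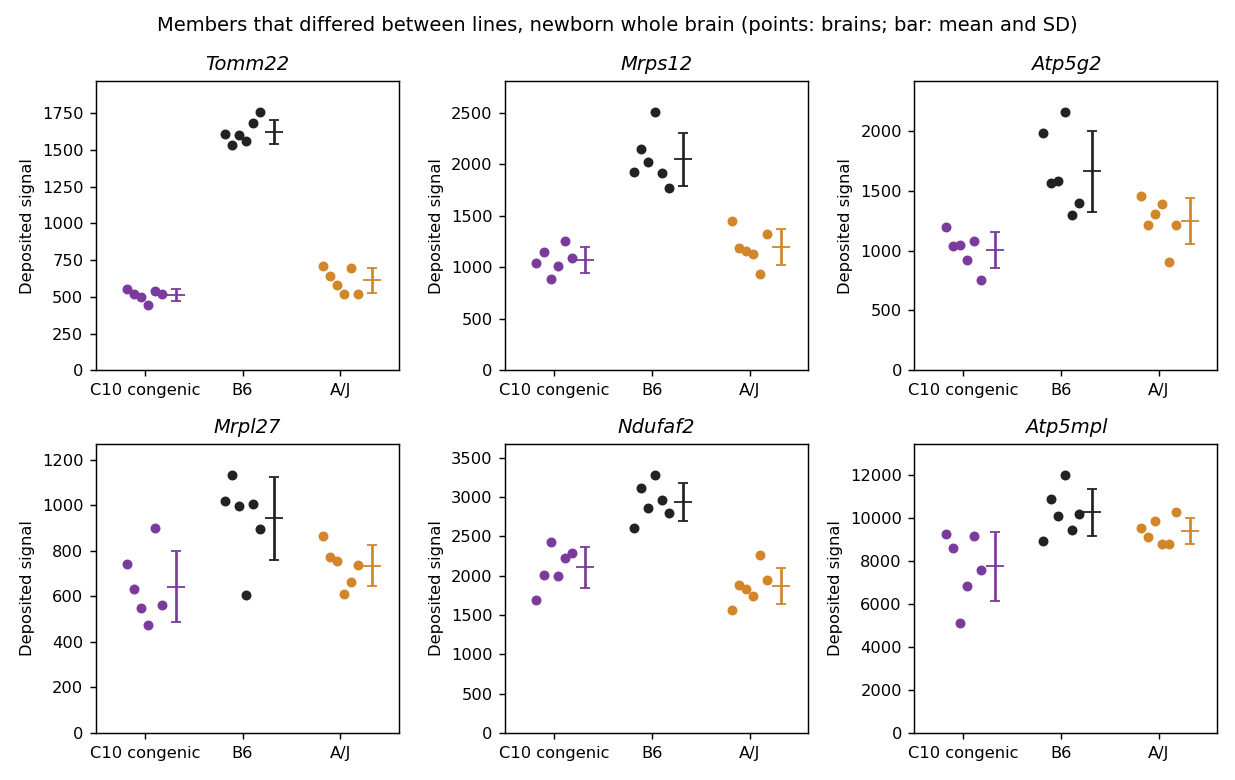
Deposited signal (background-subtracted intensity, linear axis from 0) of the 6 genes called in a comparison, with 1 point per brain and bars for the mean and SD of 6 brains; panels run from the largest to the smallest C10 congenic minus B6 difference in log2. For Tomm22, Mrps12 and Ndufaf2 all 6 B6 brains lie above all brains of the other lines, and for Atp5g2, Mrpl27 and Atp5mpl the B6 and A/J ranges overlap.

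In ATP synthase, 2 of 9 genes were called. Atp5g2, on chromosome 15, is one of a small family of genes for the same mature subunit c, which forms the rotating ring in the membrane. Its lowest, median and highest signals were 757, 1044 and 1199.5 in C10 congenic brains, 1298.5, 1578 and 2161 in B6 brains and 907, 1262 and 1457 in A/J brains. All C10 congenic brains lay below all B6 brains, whereas 4 of 6 B6 brains lay above the highest A/J brain. Atp5g2 fell by 0.68 ± 0.13 (log2, SE, 1.6-fold) in C10 congenic against B6 brains (adjusted p = 0.0007, limma). The difference of B6 minus A/J was 0.39 ± 0.13 (1.31-fold, adjusted p = 0.0432), close to the threshold, and it was lost on leaving out 9 of the 18 brains singly, with adjusted p up to 0.118. C10 congenic minus A/J was -0.29 (adjusted p = 0.299).

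Another gene of subunit c was measured on the same arrays. Atp5g1, on chromosome 11, had lowest, median and highest signals of 3423, 5183 and 6209.6 in C10 congenic, 4503, 5441 and 6230.3 in B6 and 4945, 5344 and 6807 in A/J brains. The ranges overlapped in all pairs, and its differences of -0.24, -0.18 and -0.05 in C10 congenic minus A/J, C10 congenic minus B6 and B6 minus A/J were not called (adjusted p from 0.426 to 0.843).

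Atp5mpl, on chromosome 12, encodes a small membrane subunit of ATP synthase. C10 congenic brains had 5099.9, 8079.75 and 9259.7 (lowest, median, highest), against 8934, 10141.5 and 12008 in B6 brains and 8796, 9311 and 10253 in A/J brains. C10 congenic brain 3 was the lowest, and 4 of 6 C10 congenic brains lay below the lowest B6 brain. The call in C10 congenic against B6 brains (log2 difference -0.45 ± 0.12, SE, 1.36-fold, adjusted p = 0.0149, limma) was lost when C10 congenic brain 3, B6 brain 4 and A/J brain 6 were left out together, a choice made after seeing the data (adjusted p = 0.0763). Of the 7 ATP synthase genes that were not called, Atp5l, for subunit g, had the largest difference in B6 minus A/J at 0.15 (adjusted p = 0.347). Log2 differences over the 9 genes, which also held Atp5c1, Atp5h, Atp5j2, Atp5k and Atp5md, spanned -0.31 to 0.12 in C10 congenic minus A/J, -0.68 to 0.03 in C10 congenic minus B6 and -0.15 to 0.39 in B6 minus A/J.

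In complex I, 1 of 25 genes was called, and it encodes an assembly factor. Ndufaf2, on chromosome 13, is related to the subunit Ndufa12 and takes part in building the peripheral arm. It had lowest, median and highest signals of 1688, 2118 and 2423.5 in C10 congenic brains, 2610.5, 2915 and 3285 in B6 brains, and 1561, 1853 and 2259 in A/J brains. All B6 brains lay above all brains of both other lines. Ndufaf2 fell by 0.48 ± 0.10 (log2, SE, 1.39-fold) in C10 congenic against B6 brains (adjusted p = 0.0019, limma) and was higher by 0.64 ± 0.10 (1.56-fold) in B6 than in A/J brains (adjusted p = 5.46e-05). C10 congenic minus A/J was 0.17 and not called (adjusted p = 0.454).

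The 24 other genes of complex I were not called in any comparison. Ndufa9, an accessory subunit, had medians of 3629 in C10 congenic, 3379 in B6 and 3949 in A/J brains. Its C10 congenic minus B6 difference was 0.00, with a 95% interval of -0.21 to 0.21. Ndufb9, an accessory subunit of the membrane arm, had the largest difference of any of the 87 genes in C10 congenic minus A/J, at -0.40 (adjusted p = 0.167). A/J brain 1, at 3987.5, lay far above the other 5 A/J brains, of which the highest was 2503.5. Ndufb8, of the same arm, differed by -0.26 in C10 congenic minus A/J (adjusted p = 0.197) and by -0.28 in C10 congenic minus B6 (adjusted p = 0.0624). The difference from B6 passed the threshold with a shift of 200 (0.0338), with array weights (0.0155), without B6 brain 1 (0.04) and without C10 congenic brain 3 (0.0319). Ndufs3, a core subunit of the peripheral arm, and Ndufs4, an accessory one, each had 2 kept probes, and none of these was called. Log2 differences over the 25 genes, which also held Ndufa10, Ndufa13, Ndufa2, Ndufa4, Ndufa5, Ndufa6, Ndufa7, Ndufaf3, Ndufaf4, Ndufaf7, Ndufaf8, Ndufb2, Ndufb3, Ndufb4, Ndufb5, Ndufb7, Ndufc1 and Ndufs5-ps, spanned -0.40 to 0.17 in C10 congenic minus A/J, -0.48 to 0.13 in C10 congenic minus B6 and -0.33 to 0.64 in B6 minus A/J. Ndufa4 is grouped here by its symbol, although its protein is now counted with complex IV.

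Ndufa11, another membrane-arm subunit, is named here after its values were seen, as the one gene whose C10 congenic and A/J signals did not overlap. It had 1878 to 2558 in C10 congenic brains and 2599.7 to 3164 in A/J brains, with a log2 difference of -0.31 (adjusted p = 0.138, limma). Signals did not overlap for 1.15% of the 87 genes in that comparison, against 2.01% of all probes. Over the other comparisons the share was 4.6% in C10 congenic against B6 brains, with 6.21% of all probes, and 3.45% in B6 against A/J brains, with 8.56% of all probes.

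None of the 12 genes of complexes II, III and IV was called. Sdhb, the iron-sulphur subunit of succinate dehydrogenase, had lowest, median and highest signals of 2794, 4214 and 5215 in C10 congenic, 3319, 4237 and 6180.0 in B6 and 4494.5, 4777 and 6348 in A/J brains. Although 5 of 6 C10 congenic brains lay below the lowest A/J brain, the difference of -0.30 was not called (adjusted p = 0.306). Sdhaf3, an assembly factor that takes part in maturing Sdhb, differed by 0.36 in B6 minus A/J (adjusted p = 0.0718), and without B6 brain 1 this was 0.48 with an adjusted p of 0.00555.

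In complex III, Uqcrc1, a core protein, had medians of 3948 in C10 congenic, 4257 in B6 and 4365 in A/J brains. Uqcrh, the hinge protein that binds cytochrome c, differed by at most 0.07 on the log2 scale in either direction in the 3 comparisons. Cox6c, a small subunit of cytochrome c oxidase, had 24010 to 31609 in C10 congenic, 25346 to 30351.5 in B6 and 24061 to 26994 in A/J brains, and its differences were 0.05 in C10 congenic minus A/J, -0.05 in C10 congenic minus B6 and 0.10 in B6 minus A/J. Cox5b had the largest difference of complex IV in C10 congenic minus B6, at -0.19 (adjusted p = 0.299). Cox5b, Cox6a1 and Cox6b1 each had a further kept probe, and likewise Mrpl1 in the large ribosomal subunit. Both probes of each of these 4 genes were uncalled in all comparisons. The remaining genes were Sdhc, which encodes a membrane anchor of succinate dehydrogenase, Uqcrb of complex III, and Cox7c and Cox8a of complex IV. In C10 congenic minus A/J, log2 differences spanned -0.30 to 0.13 in complex II, -0.17 to 0.03 in complex III and -0.13 to 0.05 in complex IV. In C10 congenic minus B6 they spanned -0.24 to 0.21, -0.13 to 0.05 and -0.19 to 0.00 in the same order, and in B6 minus A/J -0.24 to 0.36, -0.04 to 0.07 and -0.07 to 0.10.

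**Figure D3:**
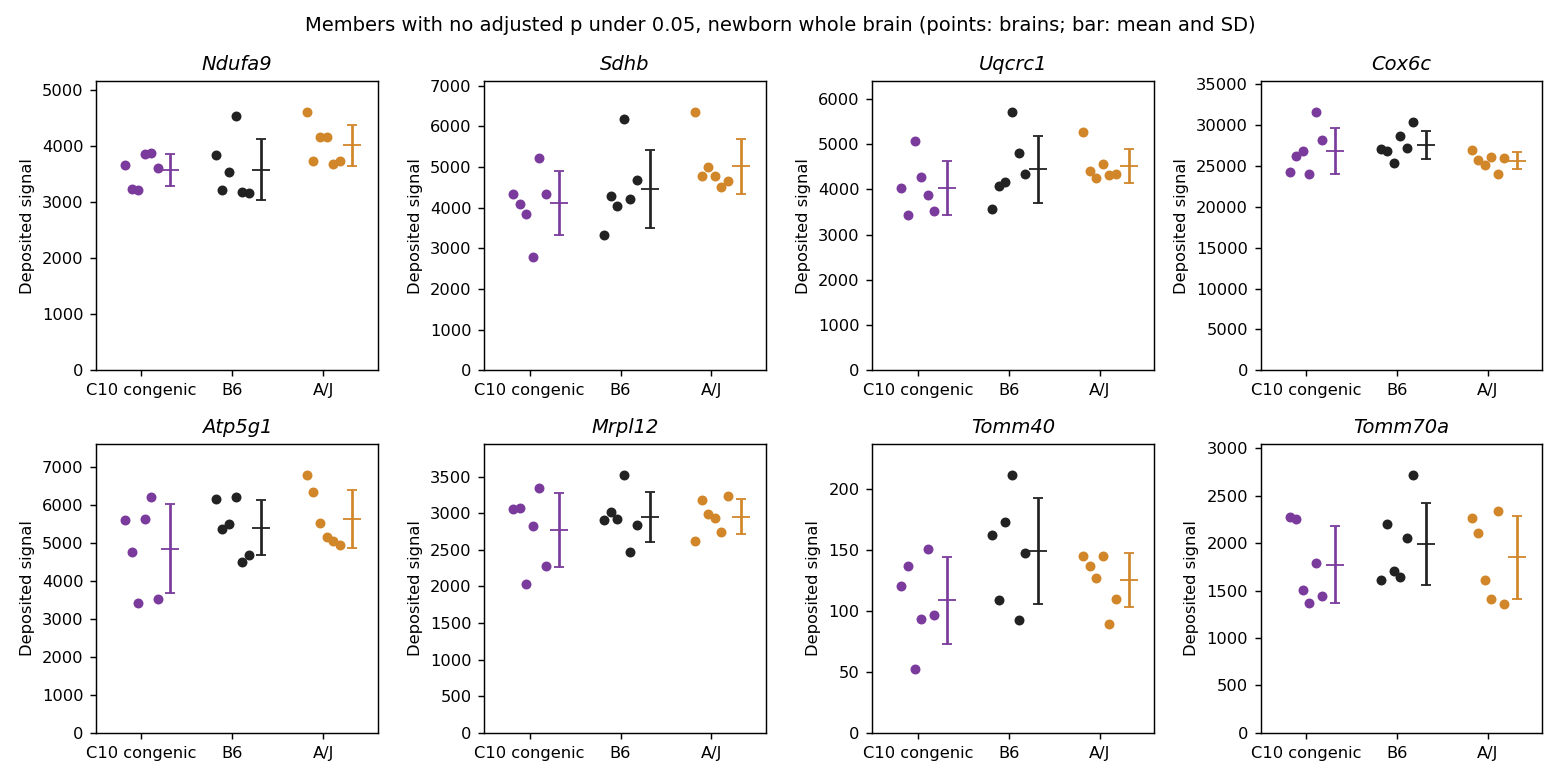
Deposited signal (background-subtracted intensity, linear axes from 0) of 8 genes that were not called in any comparison, named for their roles and whatever their values, with 1 point per brain and bars for the mean and SD of 6 brains. The ranges of the 3 lines overlap in each panel.

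For most genes, the precision bounded the difference that could have been missed. The median 95% interval reached 0.23 to either side on the log2 scale. Intervals lay wholly within 0.5 of 0 on the log2 scale for 72 of the 87 uncalled genes in C10 congenic minus A/J, for 72 of 81 in C10 congenic minus B6 and for 73 of 83 in B6 minus A/J. The median residual SD within lines was 0.19 for the 87 genes and 0.21 for all kept probes.

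Small differences leaned to one side in C10 congenic brains. Of the 87 genes, 65 (74.7%) had a lower mean log2 signal in C10 congenic than in A/J brains, with a median difference of -0.11. Among named genes with a kept probe 58.3% were lower, with a median of -0.04, and among all kept probes 50.1% were, with a median of -0.00. Against B6, 69 of 87 (79.3%) were lower in C10 congenic brains, with a median of -0.09. Named genes were lower in 51.1% of cases, with a median of -0.01, and all kept probes in 47.0%, with a median of 0.02. In B6 minus A/J, 43 of the 87 were higher and 44 (50.6%) lower, with a median of -0.00. There 55.9% of named genes were lower, with a median of -0.03, and 54.5% of all kept probes, with a median of -0.02. The medians by complex in C10 congenic minus A/J ran from -0.14 for outer membrane import and for ATP synthase, and -0.13 for complex I, to 0.00 for complex III and for inner membrane import.

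This lean rested in part on a few brains. The median log2 deviation of the 87 genes from their 18-array means was between -0.20 and 0.09 in C10 congenic brains, -0.05 and 0.27 in B6 brains and -0.02 and 0.09 in A/J brains. C10 congenic brains 3 (-0.20) and 4 (-0.12) were the lowest and B6 brain 4 (0.27) was the highest. In B6 brain 4, 75 of the 87 genes lay above their own 18-array means, and its summed neuronal markers, at 39328, lay below the 52610.1 to 56757 of the other B6 brains. The part of this in its high signals was not tested. The within-line SD of the median was 0.09 for single brains, whereas the differences between lines are between averages of 6 brains. The brain medians averaged -0.06 ± 0.10 in C10 congenic, 0.05 ± 0.11 in B6 and 0.04 ± 0.04 in A/J brains (SD, n = 6). The differences between these averages were not tested. Without C10 congenic brain 4 the median difference of C10 congenic minus A/J was -0.06, and without B6 brain 4 that of C10 congenic minus B6 was -0.05. With C10 congenic brain 3, B6 brain 4 and A/J brain 6 all left out, the medians were -0.07 in C10 congenic minus A/J, -0.02 in C10 congenic minus B6 and -0.03 in B6 minus A/J.

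**Figure D4:**
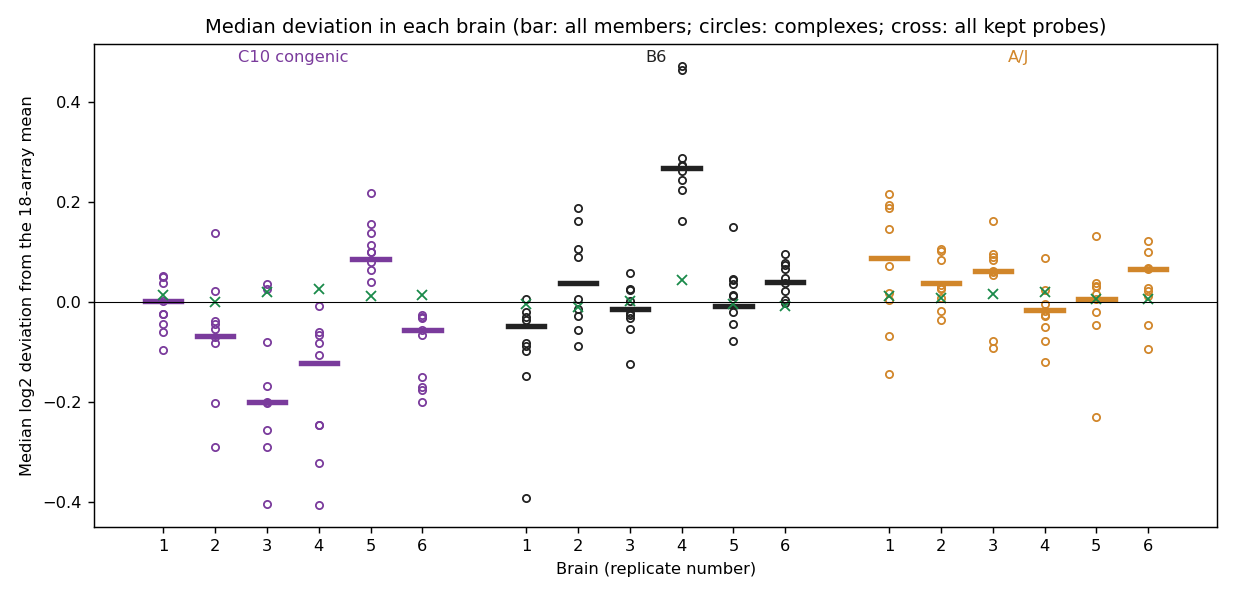
Median log2 deviation from the 18-array mean in each brain for all 87 genes (bars), for each of the 9 families (circles) and for all kept probes (crosses); the x axis gives the line and the brain number. B6 brain 4 lies highest at 0.27 and C10 congenic brain 3 lowest at -0.20, while the crosses stay between -0.01 and 0.04.

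Within lines, the 87 genes tended to move together from brain to brain. After subtracting each line's mean, the median pairwise r across the 18 brains was 0.20 for pairs among the 87 genes, against 0.02 for pairs among all 4147 named genes. By family the median was 0.28 in complex II, with only 3 genes, 0.25 in the large and 0.24 in the small ribosomal subunit. It was 0.22 in complex IV, 0.21 in ATP synthase, 0.19 in inner membrane import and 0.18 in complex III. Complex I had 0.15 and outer membrane import 0.05. Brains that stood apart from their line enter these values, and their part was not tested. These values are a description, since pairs share the same arrays and one normalization.

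Other nuclear genes of mitochondrial function, from 7 lists of 131 genes of which 46 were measured, were tested in the same fit. None was called in C10 congenic against A/J brains, where 0.932% of all probes were called. The share of all probes called was 12.1% in C10 congenic against B6 brains and 16.1% in B6 against A/J brains. Whether these lists held more or fewer calls than other genes was not tested. The called genes described here were a protease and 3 genes of mitochondrial gene expression. Mipep, a peptidase that trims imported proteins, fell by 0.56 in C10 congenic against B6 brains (adjusted p = 0.000488) and was higher by 0.57 in B6 than in A/J brains (adjusted p = 0.000406, limma).

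Gfm2, Mtif3 and Vars2, of mitochondrial gene expression, were higher in C10 congenic than in B6 brains. Gfm2, a factor for recycling mitochondrial ribosomes, had mean signals of 803 ± 67.9 in C10 congenic, 583 ± 88.2 in B6 and 757 ± 55.7 in A/J brains (SD, n = 6). It was higher by 0.42 in C10 congenic than in B6 brains (adjusted p = 0.0043, limma) and fell by 0.35 in B6 against A/J brains (adjusted p = 0.0162). Mtif3, a translation initiation factor, was higher by 0.39 in C10 congenic than in B6 brains (adjusted p = 0.0171). Vars2, the mitochondrial valyl-tRNA synthetase, was higher by 0.49 in C10 congenic than in B6 brains (adjusted p = 0.0486) and fell by 0.49 in B6 against A/J brains (adjusted p = 0.0405). No gene was called in the lists of assembly factors (12 measured), electron carriers (5), carriers and porins (3), the tricarboxylic acid cycle with pyruvate dehydrogenase (6) or nuclear regulators (3), in any comparison by limma.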

How the data were processed

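Total RNA of whole newborn brains was labelled with biotin and hybridised to Illumina Sentrix Mouse-6 arrays, 1 brain per array, per the labels' protocols. The deposited signal is an intensity per probe, background-subtracted and down to -59, from BeadStudio per the submitters' processing notes, which give no version. The deposited detection score is a fraction, and a probe counted as detected above 0.99, per the file headers' Detection column. The labels name no genome build behind the probes. The series table and the hippocampal arrays were not used here.

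Each file held 46116 probes, and 560 control probes were left out. Numbers with a leading zero in a probe ID were read as NCBI Gene IDs. Among 11897 such probes, 82.6% had a Gene ID of the reference table (assembly GRCm38.p6); with 1 to 50 added to the numbers, between 35.1% and 46% had one. Unpadded numbers (16535 probes) matched at 11.3%, against 10.9% to 11.4% after such shifts, and were not read. Gene names, chromosomes and promoters came from RefSeq tables. The 15883 probes detected in at least 6 of 18 arrays were kept (34.9% of the others than controls, and 84.8% of the 112 probes of the genes examined). A shift of 75 was added, log2 taken and arrays quantile normalized. The shift lessens log2 differences of dim probes, and folds are those of the shifted signal. Lines were compared with limma 3.58.1 (lmFit and eBayes, all 18 arrays, 1 coefficient per line, no block) in R 4.3.3, two-sided, with Benjamini-Hochberg adjustment over 15883 probes. As a check of the code, the fit was run on simulated data with independent noise for each probe. That run does not measure the power to find differences in these brains. Tables were made with Python 3.11.15, pandas 2.3.3 and numpy 2.4.6, and plots with matplotlib 3.10.9.

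Groups and brain numbers came from the sample titles, and brains are separate animals by the series text. Replicate numbers are shared by the lines, but nothing in the labels pairs brains by number. The number of arrays limits the precision. The genes, lists and tests were chosen with earlier results of these data known. Genes named are those called, the uncalled gene with the largest difference of each family in each comparison, 22 genes fixed for their roles where measured (9 were), and genes with several kept probes. Alternatives changed the normalization, the shift, the filter, the probe for a gene, the lines in the fit, array weights, a block for the brain number, and the brains left out. One result of the further lists is not reported here.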

Additional observations from a re-analysis of the deposited data

Results flagged for a closer look

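Among 102 groups of 6 brains tested, 9 held a brain far from the others, with a gap to its nearest neighbour over 0.625 of the range of the group. About 1 in 20 groups is flagged by chance, or 5.1 of 102. For genes, the gaps and ranges were not those of the deposited signals printed here, so flags on the printed signals can differ. A/J brain 1 stood high for 3 genes, with signals of 3987.5 for Ndufb9, 6348.4 for Sdhb and 5266.4 for Uqcrc1. B6 brain 1 stood low for 2 genes, with 7493.7 for Ndufs4 and 552.5 for Timm21. C10 congenic brain 3 stood low for 2 genes, with 3765.5 for Mrps24 and 3112.5 for Timm8b. B6 brain 4 stood high for Cox6a1, at 16952.1, and for the median log2 deviation of all 87 genes, at 0.268. None of these genes was called in a comparison with all brains included and the main settings. With array weights and all brains, Timm8b was called higher in B6 than in A/J brains (adjusted p = 0.0242, limma).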

How the results depend on the processing

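Of 2670 values of the named genes at other settings, 2635 kept their side of the threshold, 17 lost a call and 18 gained one. No called difference changed sign, but 73 values of 27 uncalled differences did, each of at most 0.14 in size with all brains and the main settings. Tomm22, Mrps12 and Ndufaf2 held both of their calls at every setting run, with adjusted p up to 0.0104. With array weights, 12 of the 87 genes were called in B6 against A/J brains, 8 higher and 4 lower, beside 30.7% of all probes. Named genes gained there were Mrpl27, Mrps21, Sdhaf3, Timm8b and Tomm6, higher in B6, and Ndufa9, lower in B6. Their adjusted p ran from 0.0021 to 0.0242 (limma). Array weights also gave 3 genes called lower in C10 congenic against A/J brains (Ndufa11, Ndufaf4 and Ndufb8), beside 6.13% of all probes. The cause was not tested. Leaving out 1 brain at a time gave 0 calls in each fit of C10 congenic against A/J, beside 0.107% to 1.99% of all probes. In C10 congenic against B6 it gave 5 to 9, all lower, with 9 without B6 brain 1, beside 9.68% to 14% of all probes. In B6 against A/J it gave 3 to 5, beside 12.9% to 18.2% of all probes. In the last comparison 3 to 4 genes were called higher and 0 to 1 lower, the 1 being Sdhc without A/J brain 1. The median differences ranged then from -0.14 to -0.06, from -0.13 to -0.05 and from -0.05 to 0.01 in the same order.

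With no filter on dim probes, 4 genes were called in C10 congenic against B6 brains and 3 in B6 against A/J brains. Atp5mpl (adjusted p = 0.0558), Mrpl27 (0.0579) and, in B6 against A/J, Atp5g2 (0.13) then lost their calls, as more probes were tested. Atp5g2 also lost that call with only the lines compared in the fit (0.0555) and with array weights (0.0665). Whether brain numbers pair the samples was not settled by the residuals, since the ranges of r overlapped widely. Same-numbered brains of different lines had a median r of 0.0779 (18 pairs, from -0.0915 to 0.333). Other pairs had -0.0385 (90 pairs, from -0.325 to 0.355), and 4 of 18 brains correlated best with their own number. With the replicate block, 0, 6 and 4 genes were called in C10 congenic against A/J, C10 congenic against B6 and B6 against A/J. The block and the fit with no filter on dim probes are among 9 settings that did not leave out 1 brain alone. Over these 9, the share of all probes called was 0.0022% to 6.13%, 3.51% to 13.9% and 4.71% to 30.7% in the same order. Each call rests on 1 probe, and whether the lines differ in sequence under that probe was not tested. Among the 87 genes, uncalled differences reached 0.40 in size on the log2 scale, for Ndufb9 in C10 congenic minus A/J. The smallest called one was 0.39, for Atp5g2 in B6 minus A/J. Differences of that size and below may be missed with 6 brains per line. In C10 congenic against A/J brains, where none of the 87 genes was called, larger ones may be missed as well.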

Other observations

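Cox7a1, a heart- and muscle-type subunit of cytochrome c oxidase on chromosome 7, had no kept probe and was not tested. Its probe was detected in 0 of 6 C10 congenic brains, 4 of 6 B6 brains and 0 of 6 A/J brains. Deposited signals were 31.8 to 71.6 in C10 congenic brains, 74.8 to 203.5 in B6 brains and 18.1 to 71.0 in A/J brains, without overlap between B6 and the others. The other 9 genes without a kept probe, among them Sdha, Timm23 and Tomm20, were detected in no brain of any line. For these, an absent transcript cannot be told apart from a probe that does not work.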
